A study of Homo sapiens with 6 samples.

Results

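The genes described here carry cystine into the cell, turn it into glutathione and keep glutathione and thioredoxin reduced. They are SLC7A11, SLC3A2, GCLC, GCLM, GSS, GSR, TXN, TXNRD1 and SRXN1. They were measured on Affymetrix Human Gene 1.0 ST arrays in HepG2, an established human hepatoma cell line, and 3 arrays of untreated cells were set against 3 arrays of cells given the water extract of Barringtonia racemosa leaves at 50 µg/ml for 24 h. The labels name no vehicle for the untreated cells. The replicates are labelled as biological, without a word on whether the cultures were separate, and the spread behind each p-value may therefore be technical. The number of arrays limits the precision of every value below.

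The 9 genes were chosen by name, and a row of the table was kept where the platform annotation gave it a single symbol among these names and where it was above 0. No row of a member was at 0, and each gene had 1 transcript cluster, the set of probes that stands for a gene on this array. The 9 clusters belong to 19291 clusters with a single symbol, which stand for 18372 genes. The choice of genes was made with earlier results of these arrays in view, among them the differences of SLC7A11 and GCLM. The differences between the groups are therefore a description, and an adjusted p states only where a cluster stood among all the clusters tested.

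Cystine enters cells through system xc-, a pair of a light chain, SLC7A11, and a heavy chain, SLC3A2, and is reduced inside to cysteine. Glutamate-cysteine ligase, made of the catalytic subunit GCLC and the modifier subunit GCLM, joins cysteine to glutamate, and glutathione synthetase (GSS) adds glycine. Glutathione reductase (GSR) and thioredoxin reductase (TXNRD1) use NADPH to return glutathione and thioredoxin (TXN) to their reduced forms, and sulfiredoxin (SRXN1) restores peroxiredoxins whose cysteine has been over-oxidised. Several of these genes are known targets of the transcription factor NRF2, which binds antioxidant response elements, and SLC7A11 is also a known target of ATF4, a factor of the amino acid response.

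Since these genes are known for that element, the upstream sequence that carries its core letters is shown first. The core TGACNNNGC was searched on both strands of RefSeq windows (build GRCh38.p14) that run from 250 bases before a start site to 50 bases after it. Such windows were held for 6 of the 9 genes, 9 windows in all, and not for SLC7A11, GSS and GSR. The core stood in 4 of the 9 windows, which belong to GCLM, SLC3A2 and TXNRD1, and in 13.3% of the 35116 windows of all genes. SLC3A2 and TXNRD1 had more than 1 window each, and several of the genes are known for the element. Nothing is therefore read from these shares. In the sequences below, each written 5′ to 3′ along the strand of the gene, capitals mark the core or its reverse complement GCNNNGTCA.
GCLM, chr1:93909431-93909504, minus strand: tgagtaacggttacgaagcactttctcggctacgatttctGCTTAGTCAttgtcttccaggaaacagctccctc
SLC3A2, chr11:62881622-62881698, plus strand: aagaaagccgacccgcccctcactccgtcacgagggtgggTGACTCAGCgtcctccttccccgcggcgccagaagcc
TXNRD1, chr12:104215640-104215728, plus strand: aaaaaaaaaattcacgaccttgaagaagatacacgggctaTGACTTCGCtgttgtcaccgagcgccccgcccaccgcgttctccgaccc
TXNRD1, chr12:104286890-104286978, plus strand: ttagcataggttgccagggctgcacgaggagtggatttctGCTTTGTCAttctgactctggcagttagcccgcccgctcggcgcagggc

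The match began 34 bases before the start site in GCLM, 37 in SLC3A2, and 99 and 102 in the 2 windows of TXNRD1. The match of SLC3A2 also holds TGACTCA, the letters of the site known for AP-1 factors. A further match of TXNRD1 lay across a start site and is not printed. The core of the composite element bound by ATF4, TGATGNAA, stood in 1 of the 9 windows, that of SLC3A2, at 37 to 44 bases after the start site, and in 3.62% of all windows. The windows of GCLC, TXN and SRXN1 held neither set of letters, which says only that these letters are not in these windows. A match is a description of the letters and not of binding.

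On the arrays SLC7A11 was higher after the extract, and GCLM, TXN, GSR and, by a gap of 0.019 on the log2 scale, TXNRD1 were lower, each with groups that did not overlap. SLC7A11 was higher by 1.72 fold and GCLM lower by 1.49 fold, while SLC3A2 and GSS had group means within 0.03 of each other on the log2 scale. By limma 0 of the 9 genes were called at an adjusted p under 0.05 over all clusters, against 0.00518% of the clusters tested, and 5 of the 9 had an unadjusted p under 0.05, as had 9.77% of all clusters. At the thresholds that the series' own design gives, an unadjusted p under 0.05 and a difference of at least 1.5 fold, SLC7A11 was the 1 member past them on the higher side, where 0.27% of all clusters lay, and 0 members were past them on the lower side, where 0.57% lay. The leaf-treated arrays were all above the untreated ones in 1 member and all below in 4, against 6.14% and 7.41% of all clusters. Since the genes were chosen with these results known, nothing is read from these counts. In bulk RNA of this kind, fewer cells of a type and less RNA per cell cannot be told apart.

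The arrays resembled each other, with correlations across the tested clusters from 0.984 to 0.995, but leaf-treated array 2 stood apart in brightness. It was the highest of the 3 leaf-treated arrays in 37.6% of all clusters and in 71.8% of the brightest 25%, to which 7 of the 9 members belong. Among the members it was the highest in 8 and the lowest in 1, GCLM. Its value lay a median of 0.19 on the log2 scale above the mean of the other two leaf-treated arrays in the members, 0.20 in the brightest 25% and 0.00 over all clusters. The difference of a member is therefore also given after quantile normalization, which sets all arrays to the same distribution, or without this array, wherever that moved it much. In 41.1% of the clusters at least 2 arrays held exactly the same value, among them GCLM and GSS.

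**Figure D1:**
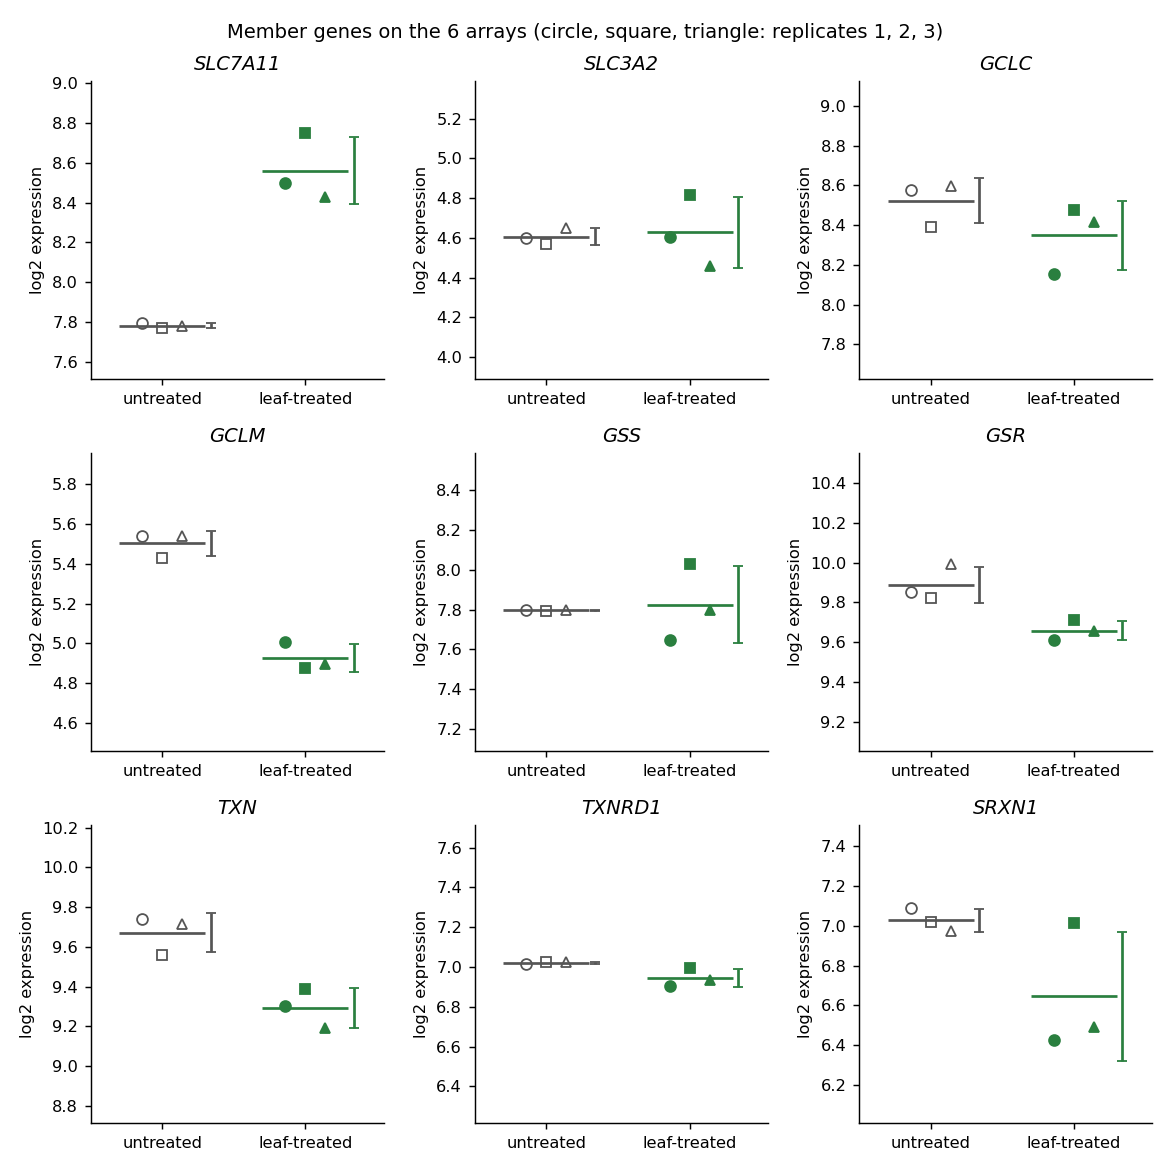
Log2 expression of each member gene on the 6 arrays, with untreated cells as open symbols and leaf-treated cells as filled symbols. Horizontal lines are group means, bars beside them are ± 1 SD (n = 3), and each panel spans the same height on the log2 scale. SLC7A11 stands above its untreated values on all 3 leaf-treated arrays, GCLM, GSR and TXN stand below theirs, and SRXN1 has 1 leaf-treated array at the untreated level.

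SLC7A11, the light chain that exchanges cystine for glutamate, had log2 values of 7.80, 7.77 and 7.78 on untreated arrays 1 to 3 and of 8.50, 8.75 and 8.43 on leaf-treated arrays 1 to 3. The untreated values lay close together and the lowest leaf-treated value was 0.64 above the highest of them. The means were 7.78 ± 0.01 and 8.56 ± 0.17 (SD, n = 3 each), a log2 difference of 0.78 (standard error 0.10, 95% interval 0.55 to 1.01, adjusted p = 0.19 from limma). By its p SLC7A11 ranked 11 among the 19291 clusters. After quantile normalization the log2 difference was 0.89 (standard error 0.07, adjusted p = 0.022 from limma), and SLC7A11 was then called, as were 0.0207% of all clusters on the higher side. The spread of its leaf-treated values was narrower there (SD 0.07), with the 3 arrays 0.88, 0.96 and 0.82 above the untreated mean. That of its untreated values was wider than as deposited (SD 0.04).

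SLC3A2, the heavy chain that carries SLC7A11 and other amino acid exchangers to the membrane, had log2 values of 4.60, 4.57 and 4.65 in untreated cells and of 4.60, 4.82 and 4.46 in leaf-treated cells. The leaf-treated arrays lay on both sides of the untreated ones. The log2 difference was 0.021 (95% interval -0.22 to 0.26, adjusted p = 0.94 from limma), and the interval allowed a difference in either direction. Its sign turned to -0.043 after centring each array on its median and to -0.074 without leaf-treated array 2. Of the other 5 light chains that pair with SLC3A2, all had overlapping groups, with log2 differences from -0.076 to 0.12. SLC7A8 had the smallest p of these, with a log2 difference of 0.12, and SLC7A6 the next, with 0.083 (adjusted p = 0.55 and 0.67 from limma). That of SLC7A6 was 0.20 after quantile normalization and 0.035 without leaf-treated array 2. SLC7A8 and SLC7A7 had untreated means of 2.81 and 2.85. This is the level of olfactory receptor clusters, a stand-in for background, whose median was 2.76 to 2.86 on the 6 arrays. The size of the differences of SLC7A8 and SLC7A7 is therefore not known.

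Within each array, the difference between SLC7A11 and SLC3A2 removes a shift that is equal in all clusters. A shift that varies with brightness would remain, here and in the other pairs below, where the 2 genes differ in level. This difference of log2 values was 3.20, 3.20 and 3.13 on the untreated arrays and 3.89, 3.93 and 3.97 on the leaf-treated arrays. The mean moved by 0.76, and leaf-treated array 2 no longer stood apart. Both genes were higher on that array than on the other leaf-treated arrays by a like amount.

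GCLM, the modifier subunit that raises the activity of glutamate-cysteine ligase, had log2 values of 5.54, 5.43 and 5.54 in untreated cells and of 5.01, 4.88 and 4.90 in leaf-treated cells. The highest leaf-treated value was 0.42 below the lowest untreated one. The means were 5.50 ± 0.06 and 4.93 ± 0.07 (SD, n = 3 each), a log2 difference of -0.58 (standard error 0.07, 95% interval -0.75 to -0.40, adjusted p = 0.19 from limma). GCLM ranked 12 by its p among all clusters and lay just under the 1.5 fold of the series' thresholds. It was past them in 3 of 15 other settings, with -0.64 after centring on the median, -0.61 without untreated array 2 and -0.62 without leaf-treated array 1. After quantile normalization the log2 difference of GCLM was -0.52 (adjusted p = 0.13 from limma), the smallest drop among the 15 settings.

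GCLC, the catalytic subunit, had log2 values of 8.58, 8.39 and 8.60 in untreated cells and of 8.15, 8.48 and 8.42 in leaf-treated cells. The groups overlapped, and leaf-treated array 1 was the one array clearly below the rest. The log2 difference of GCLC between the groups was -0.17 (95% interval -0.44 to 0.088, adjusted p = 0.58 from limma). It was -0.076 without leaf-treated array 1 and -0.069 after quantile normalization, but -0.24 without leaf-treated array 2 and -0.24 after centring on the median. The 2 subunits thus did not keep the same distance: the within-array difference of GCLM from GCLC moved by -0.40, from -3.04, -2.96 and -3.06 on the untreated arrays to -3.14, -3.60 and -3.52 on the leaf-treated ones. On leaf-treated array 1 this distance was 0.087 beyond the nearest untreated array. Of the leaf-treated arrays, that one held the lowest value of GCLC, 8.15, and the highest of GCLM, 5.01.

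GSS, the enzyme of the second step, had log2 values of 7.80, 7.79 and 7.80 in untreated cells and of 7.65, 8.03 and 7.80 in leaf-treated cells. Untreated arrays 1 and 3 and leaf-treated array 3 held the same value, and the other two leaf-treated arrays lay on either side of it. Its group means differed by 0.029 on the log2 scale (95% interval -0.22 to 0.28, adjusted p = 0.92 from limma), with -0.036 after centring on the median, 0.14 after quantile normalization and -0.074 without leaf-treated array 2. Against GCLC in the same array, GSS moved by 0.20, and the groups overlapped.

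GSR, which regenerates reduced glutathione, had log2 values of 9.85, 9.82 and 9.99 in untreated cells and of 9.61, 9.71 and 9.65 in leaf-treated cells. All leaf-treated arrays were below the untreated ones, by at least 0.11. This was a log2 difference of -0.23 (standard error 0.07, 95% interval -0.41 to -0.055, adjusted p = 0.49 from limma). After quantile normalization it was -0.14, and the 3 leaf-treated arrays were 0.14, 0.17 and 0.13 below the untreated mean.

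**Figure D2:**
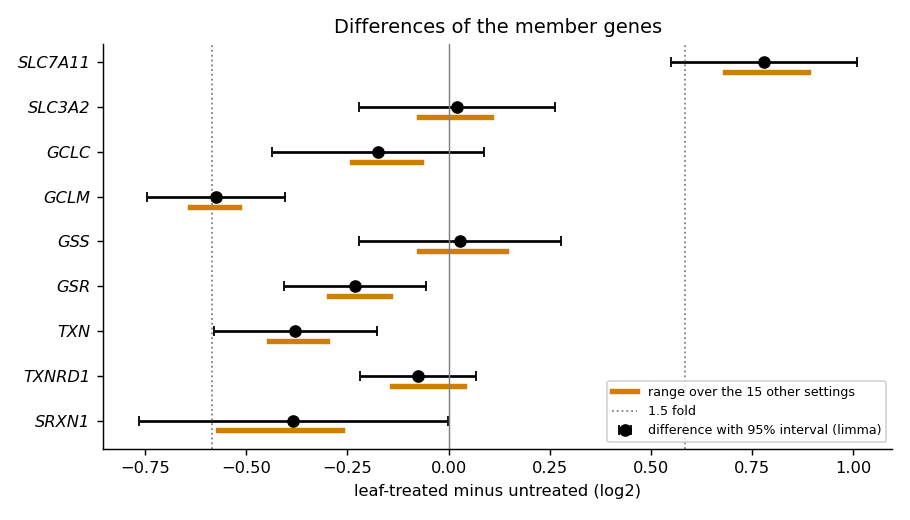
Difference between leaf-treated and untreated arrays for each member gene on the log2 scale. Points with bars are the limma estimate and its 95% interval, orange lines the range over 15 other settings, and dotted lines mark 1.5 fold. SLC7A11 alone lies beyond 1.5 fold on the higher side, GCLM lies at the line on the lower side, and the orange lines of SLC3A2, GSS and TXNRD1 cross 0.

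TXN, the thioredoxin that reduces disulfides in ribonucleotide reductase, peroxiredoxins and other proteins, had log2 values of 9.74, 9.56 and 9.71 in untreated cells and of 9.30, 9.39 and 9.19 in leaf-treated cells. The groups were 0.17 apart. The means were 9.67 ± 0.10 and 9.29 ± 0.10 (SD, n = 3 each), a log2 difference of -0.38 (standard error 0.08, 95% interval -0.58 to -0.18, adjusted p = 0.38 from limma), or 1.30 fold lower. It stayed between -0.44 and -0.30 in the 15 other settings, and the 3 leaf-treated arrays were all below the untreated mean after quantile normalization as well.

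TXNRD1, the selenoprotein that reduces TXN, had log2 values of 7.01, 7.02 and 7.03 in untreated cells and of 6.91, 6.99 and 6.93 in leaf-treated cells. The groups did not overlap, but the gap was 0.019. Its means differed by -0.076 on the log2 scale (95% interval -0.22 to 0.068, adjusted p = 0.64 from limma), and its sign turned after quantile normalization, where it was 0.039. TXN and its reductase therefore differed in how far they moved: within an array, TXNRD1 minus TXN was -2.73, -2.54 and -2.69 in untreated cells and -2.40, -2.39 and -2.26 in leaf-treated cells, a shift of 0.30 with groups that did not overlap.

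SRXN1 had log2 values of 7.09, 7.02 and 6.97 in untreated cells and of 6.43, 7.02 and 6.49 in leaf-treated cells. Leaf-treated arrays 1 and 3 were well below the untreated arrays and array 2 was level with them, so the groups overlapped. The log2 difference was -0.38 (standard error 0.16, 95% interval -0.76 to -0.0020, adjusted p = 0.51 from limma). Without leaf-treated array 2 it was -0.57 (adjusted p = 0.088 from limma). That setting gave SLC7A11 and GCLM the same adjusted p, against 0.19 for each on all arrays, so the fall was not particular to SRXN1. Without leaf-treated array 1 the log2 difference of SRXN1 was -0.27. After quantile normalization the 3 leaf-treated arrays were still 0.43, 0.039 and 0.32 below the untreated mean, and the log2 difference was -0.26. Against TXN in the same array the mean of SRXN1 moved by -0.0051, but the arrays disagreed. SRXN1 minus TXN was -2.65, -2.54 and -2.74 on the untreated arrays and -2.88, -2.37 and -2.70 on the leaf-treated ones. Leaf-treated array 1 thus lay below all untreated arrays and array 2 above them.

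**Figure D3:**
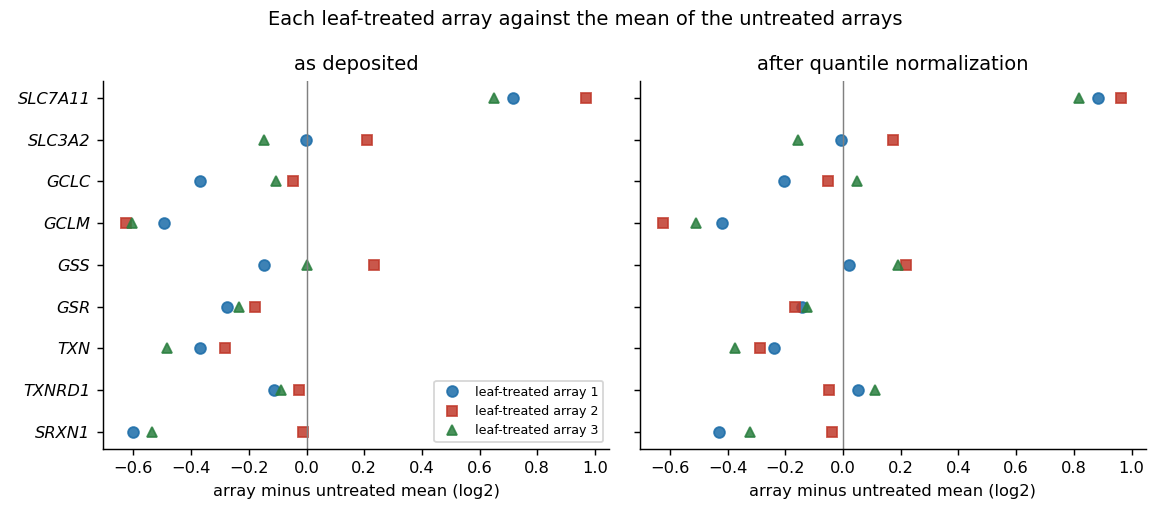
Each of the 3 leaf-treated arrays minus the mean of the untreated arrays, for each member gene on the log2 scale, with the deposited values on the left and quantile-normalized values on the right. Array 2 lies to the right of the other two for 8 of the 9 genes as deposited. After quantile normalization the 3 arrays of SLC7A11 and GSR lie closer together, while SRXN1 keeps array 2 near 0 and the others below it.

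**Figure D4:**
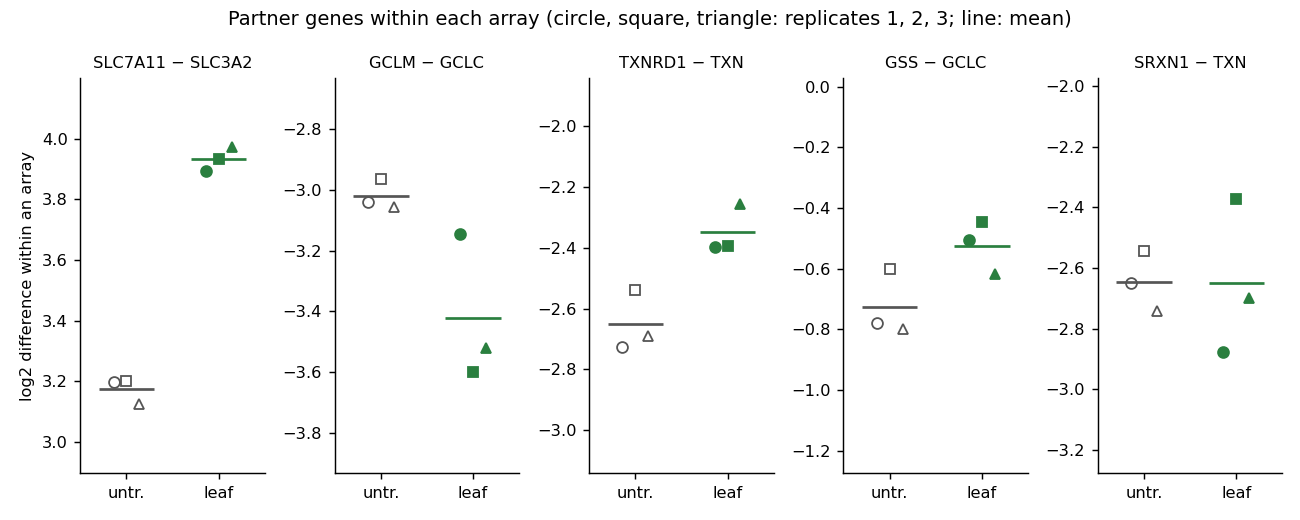
Differences of log2 values between partner genes within each array, with untreated cells as open symbols, leaf-treated cells as filled symbols and lines at the group means. The heights of the panels are equal. The groups do not overlap for SLC7A11 minus SLC3A2, GCLM minus GCLC and TXNRD1 minus TXN, and overlap for GSS minus GCLC and SRXN1 minus TXN.

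The profiles most like those of the members at either end were sought over the 6 arrays, as the smallest root mean square difference after each cluster's own mean was subtracted. Closest to SLC7A11 were BNIP3L at 0.069, TXNIP at 0.072, SLC2A1 at 0.077, EDN1 at 0.090 and NT5E at 0.10 on the log2 scale. Closest to GCLM were DNAJC2 at 0.051, EXOSC2 at 0.058, MARCHF5 at 0.064, ZNF639 at 0.067 and HMMR at 0.074. This is a likeness over 6 arrays in 2 groups, and any cluster with a group difference of similar size comes close by this measure.

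Of 71 other genes of the pathway, 65 had at least 1 cluster with a single symbol above 0, with 69 clusters in all. By limma 0 of these clusters were called at an adjusted p under 0.05, and 4 on the higher and 3 on the lower side had an unadjusted p under 0.05, against 3.87% and 5.9% of all clusters. After quantile normalization 1 of the 69, TXNIP, was called. Their median log2 difference was -0.017, against -0.17 for the members and 0.011 for all clusters tested. The medians after quantile normalization were -0.013 for the pathway, -0.069 for the members and -0.0027 for all clusters, and after centring on the median they were -0.082, -0.24 and -0.054. The groups did not overlap in 8 of the 69 clusters, 4 on either side, against 6.14% of all clusters with the leaf-treated arrays above and 7.41% with them below.

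In the thioredoxin system 18 clusters were tested, with a median log2 difference of -0.012 that turned to 0.0047 after quantile normalization. TXNIP, which binds and inhibits TXN, had log2 values of 7.29, 7.41 and 7.34 in untreated cells and of 7.994, 8.17 and 7.997 in leaf-treated cells, a log2 difference of 0.71 (standard error 0.08, adjusted p = 0.19 from limma). Its groups were well apart, in the direction opposite to that of TXN, and after quantile normalization the difference was 0.83 (adjusted p = 0.022 from limma). PRDX6, a peroxiredoxin that is reduced by glutathione, had overlapping groups and a log2 difference of -0.39 (adjusted p = 0.51 from limma). The other 16 clusters, among them those of PRDX1 to PRDX4, the sestrins and the methionine sulfoxide reductases, had differences between -0.19 and 0.14.

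Among the glutathione-dependent peroxidases, glutaredoxins and glyoxalases the median over 14 clusters was -0.16 (-0.075 after quantile normalization). Of the 14, 11 were on the lower side, as were 9048 of all 19291 clusters. GPX7 at -0.0006 and 1 cluster of GLRX5 at -0.0037, both counted as lower, turned to 0.0090 and 0.11 after quantile normalization. GLRX, a glutaredoxin that reduces glutathionylated proteins, had log2 values of 8.64, 8.59 and 8.45 in untreated cells and of 9.02, 8.90 and 8.78 in leaf-treated cells, with groups that did not overlap. The log2 difference was 0.34 (standard error 0.09, adjusted p = 0.42 from limma). GPX8, a peroxidase of the endoplasmic reticulum, was at 2.70, 2.77 and 2.79 in untreated cells and at 3.13, 3.54 and 3.20 in leaf-treated cells. The arrays have no detection calls, and the median over 357 olfactory receptor clusters, a stand-in for background, was 2.76 to 2.86 on the 6 arrays, so that the size of the difference of GPX8, 0.53 on the log2 scale (adjusted p = 0.38 from limma), is not known.

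Genes that supply cysteine had a median of -0.031 over 9 clusters, and genes of glutathione turnover and export one of 0.018 over 12, which turned to -0.0026 after quantile normalization. In the first list SLC1A1, a transporter of glutamate and cysteine, had the smallest p, with a log2 difference of 0.27 from an untreated mean of 2.79 that was also at the level of olfactory receptors. SLC1A5 had a log2 difference of -0.19 in 1 of its 2 clusters and -0.031 in the other, which turned to 0.058 after quantile normalization. CTH, the enzyme that releases cysteine from cystathionine, was chosen here after its value was seen and had a log2 difference of -0.26 with overlapping groups (adjusted p = 0.61 from limma). Leaf-treated arrays 1 and 3 differed from the untreated mean by -0.42 and -0.51 and array 2 by 0.17, and without array 2 the difference was -0.47. In the second list GGT5 and GGCT had the smallest p, with log2 differences of 0.26 and -0.14 (0.19 and -0.034 after quantile normalization), and the groups overlapped in all 12 clusters.

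The list of NRF2 and ATF4 regulators had a median of -0.010 over 11 clusters, which was -0.060 without leaf-treated array 2 and -0.075 after centring on the median. NFE2L2, the gene of NRF2 itself, had log2 values of 9.22, 9.04 and 9.21 in untreated cells and of 8.63, 8.74 and 8.73 in leaf-treated cells. All leaf-treated arrays were below the untreated ones, and the log2 difference was -0.45 (standard error 0.08, adjusted p = 0.33 from limma), or -0.36 after quantile normalization. MAFG, a small MAF partner of NRF2, had log2 differences of -0.29, 0.20 and 0.037 in its 3 clusters, which thus pointed both ways, and the last turned to -0.023 after quantile normalization. ATF4, also chosen after its value was seen, had a log2 difference of -0.043 (-0.010 after quantile normalization and -0.11 after centring), but its untreated arrays spread with an SD of 0.58, so that little can be said of its level.

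**Figure D5:**
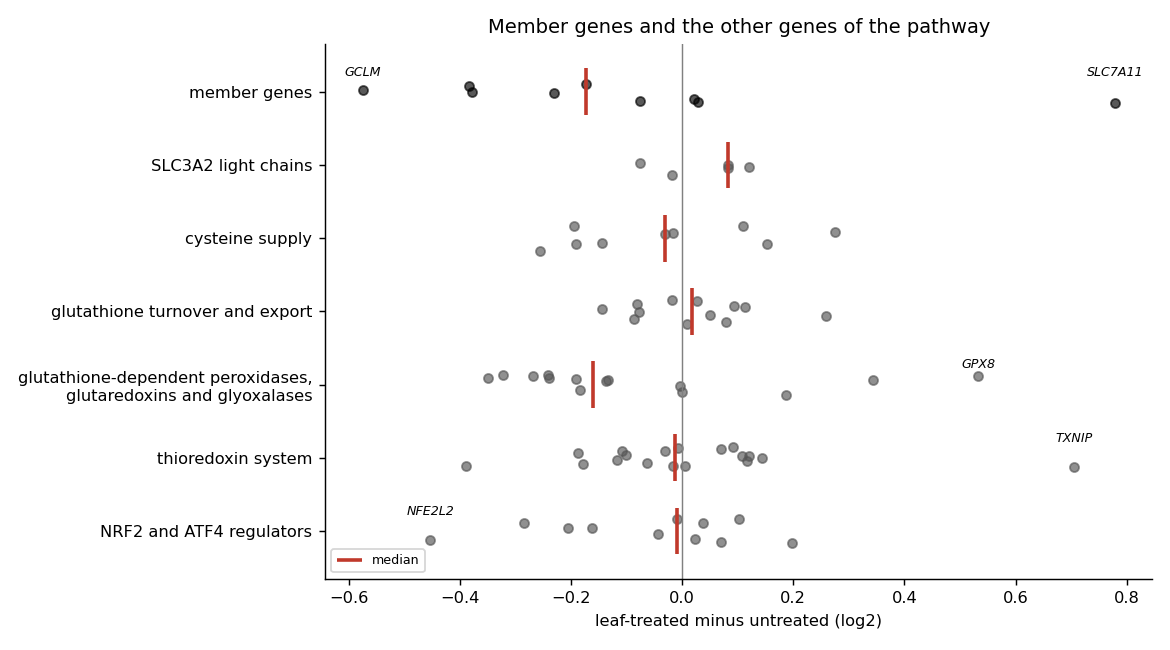
Difference between leaf-treated and untreated arrays on the log2 scale for the member genes and for 6 lists of other genes of the pathway. Each point is 1 transcript cluster, red lines are list medians, and vertical scatter within a list carries no meaning. SLC7A11 and TXNIP lie farthest to the right, GCLM and NFE2L2 farthest to the left of their lists.

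HepG2 cells were checked against hepatocyte markers. The 9 clusters of 8 such genes, among them ALB, AFP and APOB, had untreated means from 7.88 to 11.3. Their median log2 difference was -0.11 (-0.033 after quantile normalization), with 8 of the 9 on the lower side and TTR on the higher. Of all 19291 clusters, 9048 were on the lower side. SERPINA1 and TF, at -0.064 and -0.037, turned to 0.035 and 0.0079 after quantile normalization. The 2 clusters of APOA1, both on the lower side, held the same values on all 6 arrays, so 1 measurement is counted 2 times. TTR and AFP had the smallest p of the 9, with log2 differences of 0.19 and -0.15 (adjusted p = 0.51 and 0.53 from limma), or 0.29 and -0.056 after quantile normalization. Of 9 markers of other cell types, CD68 and ACTA2 were at 6.90 and 6.04 in untreated cells and the other 7 at 2.56 to 3.90. The median of these 9 was 3.18 to 3.37 on the untreated arrays and 3.45, 3.29 and 3.81 on leaf-treated arrays 1 to 3, with COL3A1 and KRT14 at log2 differences of 0.34 each and overlapping groups. Without leaf-treated array 2 these were 0.46 and 0.53. Of the 9 markers 7 were on the higher side, as were 10243 of all 19291 clusters, and CD68 and PTPRC, at -0.22 and -0.048, on the lower. The part of this in the differences of the members was not tested.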

How the data were processed

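The deposited table holds log2 expression values as the authors processed them, 1 column for each of 6 arrays. GCOS, Partek and RMA are named in the submitters' processing notes, and no version or option is stated there. The deposited arrays do not share 1 distribution, which bears on every comparison. Of 33297 rows, 4468 at 0 on all arrays were left out. Symbols came from the platform annotation, updated through Entrez identifiers to GRCh38.p14, and 19291 rows with 1 symbol were tested.

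The groups were fitted in R 4.3.3 with limma 3.58.1 (lmFit, eBayes, no covariate), with Benjamini-Hochberg adjustment over all tested rows and calls at 0.05. Intervals are 95% intervals from the same moderated fit. The script was tested on simulated data. The members and the gene lists were chosen with earlier results of these data known. Named are all members, the 2 clusters with the smallest p of each other list, and the 5 clusters closest in profile to the members with the highest and the lowest difference. CTH and ATF4 fall outside this rule, as do marker genes and peroxiredoxins named only for their level, their side or as examples of a list. Alternatives were quantile normalization, centring on array medians, leaving out the dimmest 30% of clusters, a fit with intensity trend and robust variance, weights for the arrays, the series' own analysis of variance, a test of all rows above 0, the mean over a gene's clusters, a replicate block, and each array left out in turn.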

Additional observations from a re-analysis of the deposited data

How the results depend on the processing

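Over the 15 other settings, 127 of 135 member differences kept their sign and their side of an adjusted p of 0.05. That p came from the moderated fit of limma, except that the series' own analysis of variance was run without moderation. The members called were 0 in 14 settings and 1, SLC7A11, after quantile normalization. Those past the series' thresholds were 2 after centring on the median, SLC7A11 and GCLM, and 1 to 2 when 1 array was left out. The split of higher and lower members, 3 and 6 as deposited, was 4 and 5 after quantile normalization and 1 and 8 after centring, with array weights and without leaf-treated array 2. The sign of TXNRD1 turned to 0.039 after quantile normalization. SLC3A2 turned to -0.043 after centring, to -0.0083 with array weights and spanned -0.074 to 0.10 when 1 array was left out. GSS turned to -0.036 and -0.011 under the same 2 settings and spanned -0.074 to 0.12. Centring lowers the difference of every cluster by the same amount, because the leaf-treated arrays had the higher medians. These were 3.81, 3.75 and 3.83 on leaf-treated arrays 1 to 3 and 3.71, 3.74 and 3.74 on untreated arrays 1 to 3. The cause of the other turns was not tested. The labels do not say whether the replicate numbers pair the samples. Deviations of same-numbered arrays from their group means correlated at -0.11, -0.18 and 0.12, which with 3 arrays a group cannot settle it. With the replicate block 0 members were called and 1 was past the series' thresholds. With 3 arrays a group, differences within the intervals given cannot be resolved.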
